A study of Mus musculus with 2 samples.

Results

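The genes described here encode the receptors through which brain cells sense neurotransmitters. They were picked by gene symbol, from the glutamate, GABA, glycine, acetylcholine, serotonin, dopamine and adrenergic receptor families. Earlier results of these data were known when this choice was made. Of the 24130 gene symbols in the deposited tables, 100 matched and 99 were analysed. By family there were 4 AMPA, 5 kainate, 7 NMDA and 8 metabotropic glutamate receptor genes, 18 GABA-A and 2 GABA-B genes, 5 glycine, 16 nicotinic, 5 muscarinic, 14 serotonin, 5 dopamine, 6 alpha-adrenergic and 3 beta-adrenergic genes. The remaining symbol, Grin1os, is an antisense RNA and not a receptor, and it had 1 unique molecular identifier (UMI) in all.

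The cells came from the hippocampus of male C57BL/6 mice, labelled as 6 months old although the sample titles call the brain aged, and were dissociated with papain and read as single cells in 2 libraries, 1 per group. EMF_AuNPs mice had gold nanoparticles injected into the hippocampus and then spent 3 weeks under an electromagnetic field made by a pair of Helmholtz coils. Control mice received saline, and the protocol does not make clear if they too were put between the coils. How many animals went into each library, and whether any were pooled, is not given in the sources used here. Treatment, animal and library cannot be told apart, no difference has a replicate check, and no test between the groups was made.

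The EMF_AuNPs library held 7003 barcodes and 19544686 UMIs, and its median barcode had 2310 UMIs. For control the numbers were 21583 barcodes, 51091452 UMIs and 1904 UMIs in the median barcode. Cells were named from marker genes, so "astrocyte-like" means a cell in which astrocyte markers led every other class. This placed 5725 EMF_AuNPs barcodes (81.8%) and 17823 control barcodes (82.6%). Levels are UMIs of a gene per 1000000 UMIs of a cell type in a library (CPM), and brackets hold 95% intervals that cover counting error only. Ratios are log2 of EMF_AuNPs over control with 1 CPM added, and "higher" or "lower" is used for ratios of at least 1.5-fold as a description. Their bracketed intervals are those of the ratio with nothing added. Barcodes dominated by haemoglobin, from red blood cells, were 397 (5.67%) in the EMF_AuNPs and 308 (1.43%) in the control library. Red blood cells are not expected to transcribe these genes. Their UMIs, counted as CPM of the UMIs that are not haemoglobin, show the level within free RNA. Free RNA is only part of the UMIs of other cells, so a level under this one does not settle its source. The libraries shared 38 barcode sequences.

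As background, ligand-gated receptors such as AMPA, NMDA, GABA-A and glycine receptors are channels built from several subunits, and the subunit mix sets how a cell responds. Metabotropic glutamate, GABA-B, muscarinic, dopamine and adrenergic receptors, and most serotonin receptors, signal through G proteins instead. In the hippocampus neurons carry most of these receptors, while astrocytes, oligodendrocytes, microglia, vessel cells and the choroid plexus each carry smaller sets of their own.

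Of the 99 genes, 11 had 0 UMIs in both libraries, 30 had 1 to 19, 18 had 20 to 99 and 40 had 100 or more. The genes at 0 were Chrna6, Chrna9, Chrnd, Chrng, Drd2, Drd3, Gabra6, Gabrr3, Glra4, Grm6 and Htr3b. In cells given a type, 38 genes had at least 100 UMIs, and their levels carry the description. Of these 38, the level was highest in excitatory or granule neuron-like cells for 20 genes, in astrocyte-like cells for 5, in oligodendrocyte-like cells for 3, in microglia-, fibroblast-, ependymal- and choroid plexus-like cells for 2 each, and in endothelial- and Cajal-Retzius-like cells for 1 each. Receptor genes together took 7966 CPM in EMF_AuNPs and 7152 in control excitatory or granule neuron-like cells. In astrocyte-like cells they took 2351 CPM in EMF_AuNPs and 2120 in control cells, and in endothelial-like cells 346 and 326.

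**Figure D1:**
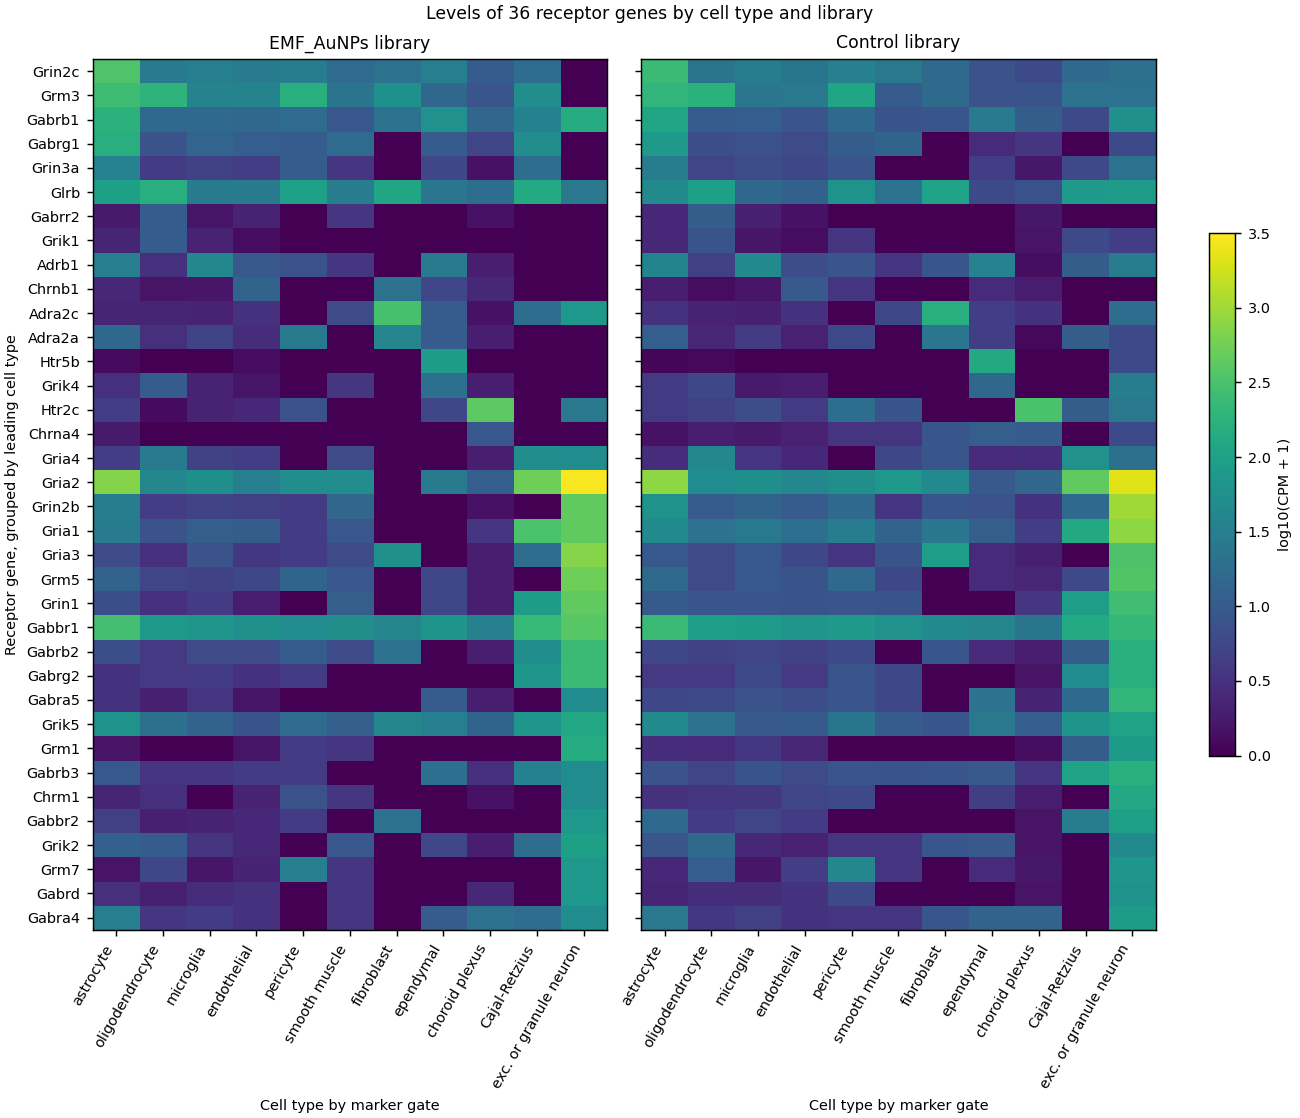
Colour shows log10(CPM + 1) of 36 receptor genes with at least 100 UMIs in typed cells (rows, grouped by the cell type of highest level) across 11 cell types (columns), for the EMF_AuNPs library on the left and the control library on the right. Colours compare cell types within a row, since CPM is not corrected for gene length; the neuron column is bright in the lower rows, and small sets stand out in astrocyte-, oligodendrocyte-, ependymal- and choroid plexus-like cells.

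The 4 promoters shown belong to channel subunit genes read in astrocyte-like cells, 3 of which were higher in the EMF_AuNPs library (Gabrg1, Gabrb1, Glrb) and 1 of which lay below 1.5-fold (Grin2c). They are RefSeq promoters of 300 bases on GRCm38.p6, from 250 bases before to 50 bases after the annotated start, written 5′ to 3′ on the gene's strand. Capitals mark GC boxes, searched as GGGCGG on both strands; overlapping matches run together. They lie at chr5:70842568-70842867 (minus strand, Gabrg1), chr5:71657671-71657970 (plus strand, Gabrb1), chr3:80913611-80913910 (minus strand, Glrb) and chr11:115267194-115267493 (minus strand, Grin2c).
Gabrg1: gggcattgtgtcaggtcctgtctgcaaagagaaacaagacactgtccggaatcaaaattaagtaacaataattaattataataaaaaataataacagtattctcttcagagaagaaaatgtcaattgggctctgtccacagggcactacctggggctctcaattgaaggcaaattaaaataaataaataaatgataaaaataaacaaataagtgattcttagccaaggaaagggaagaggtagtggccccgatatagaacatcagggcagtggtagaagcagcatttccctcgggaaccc
Gabrb1: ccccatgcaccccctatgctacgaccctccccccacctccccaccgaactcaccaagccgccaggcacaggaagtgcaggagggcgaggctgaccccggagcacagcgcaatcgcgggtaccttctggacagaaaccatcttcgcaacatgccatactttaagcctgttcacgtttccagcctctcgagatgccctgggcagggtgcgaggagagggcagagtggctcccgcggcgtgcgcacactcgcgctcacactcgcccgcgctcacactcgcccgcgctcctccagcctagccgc
Glrb: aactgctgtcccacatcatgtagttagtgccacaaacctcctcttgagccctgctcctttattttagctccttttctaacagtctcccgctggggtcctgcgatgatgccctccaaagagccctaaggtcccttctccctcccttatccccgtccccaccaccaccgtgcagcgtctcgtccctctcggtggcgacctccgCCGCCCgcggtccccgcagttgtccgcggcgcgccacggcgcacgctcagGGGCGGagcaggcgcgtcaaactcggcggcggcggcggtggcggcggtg
Grin2c: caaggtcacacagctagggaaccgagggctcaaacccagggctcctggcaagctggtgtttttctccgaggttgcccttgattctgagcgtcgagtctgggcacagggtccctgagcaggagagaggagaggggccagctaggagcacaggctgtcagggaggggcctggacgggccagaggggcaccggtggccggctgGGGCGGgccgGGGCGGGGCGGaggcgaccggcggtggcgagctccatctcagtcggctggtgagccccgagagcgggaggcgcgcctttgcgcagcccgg
The Gabrg1 promoter is poor in CpG dinucleotides, with 3 and a GC content of 38.3%, whereas Gabrb1 has 25, Glrb 30 and Grin2c 22. Glrb holds 2 GC boxes and Grin2c 3, while these letters are not in the Gabrg1 and Gabrb1 windows. Among all 32851 promoters of this length 35.7% hold a GC box and 13.6% a TATA box (TATAAA on both strands), against 51.8% and 8.24% of the 85 promoters that belong to 73 of the receptor genes. Gabrg1, Gabra4 and Gabrb1 belong to a GABA-A gene cluster on chromosome 5, with Gabrg1 (chr5:70751047-70842617, minus strand), Gabra4 (chr5:71569749-71658308, minus strand) and Gabrb1 (chr5:71658113-72149037, plus strand) placed there in GENCODE M21 on GRCm38. Gabra4 and Gabrb1 overlap at their starts, and whether the counting used strand is not given in the sources used here.

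Astrocyte-like cells, of which there were 1660 in the EMF_AuNPs and 3476 in the control library, carried GABA-A subunits that were higher in the EMF_AuNPs library. Gabrg1, a gamma subunit of this chloride channel, had 628 UMIs or 160 CPM (148 to 173) in EMF_AuNPs cells, against 456 UMIs or 75.9 CPM (69.1 to 83.2) in control cells. Its log2 ratio was 1.07 (0.90 to 1.25). Gabrb1, a beta subunit, stood at 176 CPM (163 to 189) in EMF_AuNPs and 114 CPM (106 to 123) in control cells, a log2 ratio of 0.62 (0.47 to 0.78). The Gabrb1 ratio was 0.45 when it was taken relative to the median gene of these cells, which itself stood at 0.16, and so fell under 1.5-fold, while that of Gabrg1 was 0.90. Gabra4, an alpha subunit, had 30.8 CPM in EMF_AuNPs and 23.3 CPM in control cells, a ratio of 0.39 (0.04 to 0.77). Thinning every cell to 1000 UMIs kept 1209 EMF_AuNPs and 2493 control astrocyte-like cells and left out shallower ones. A Gabrg1 UMI was found in 14.97% of EMF_AuNPs cells (13.01 to 17.1) and 7.78% of control cells (6.76 to 8.90). Unthinned cells, with 2059 UMIs at the median in EMF_AuNPs and 1426 in control, had shares of 28.2% and 11.97%. Thinned microglia-like cells, which should lack the gene, had a Gabrg1 UMI in 1.63% of EMF_AuNPs and 0.736% of control cells, from median depths of 2341.5 and 1598 UMIs before thinning. Gabrg1 therefore stood above the level seen in other cells in each library.

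The glutamate receptor genes of highest level in astrocyte-like cells moved less than Gabrg1 and Gabrb1. Gria1 and Grin2b, led by neurons, were lower in these cells and are given below. Gria2, the AMPA subunit that limits calcium entry, had 697 CPM (671 to 724) in EMF_AuNPs and 813 CPM (791 to 836) in control cells, a log2 ratio of -0.22 (-0.29 to -0.15). Grin2c, an NMDA subunit, had 344 CPM (326 to 363) in EMF_AuNPs and 245 CPM (233 to 258) in control cells, a ratio of 0.49 (0.38 to 0.60). Grm3, a metabotropic receptor that inhibits cyclic AMP production, had 254 CPM (239 to 271) in EMF_AuNPs and 203 CPM (192 to 215) in control cells, a ratio of 0.32 (0.20 to 0.45). None of these 3 reached 1.5-fold on either side. Thinned cells held a Grin2c UMI in 30.4% of EMF_AuNPs and 21.9% of control cells, and a Grm3 UMI in 21.5% and 17.6%. Unthinned shares were 48.4% in EMF_AuNPs and 31.6% in control for Grin2c, and 36.4% and 25.9% for Grm3. Thinned microglia-like cells gave 2.12% in EMF_AuNPs and 3.02% in control for Grin2c, and 3.59% and 2.39% for Grm3. Grin2c took 73.6% of its UMIs in typed cells from astrocyte-like cells, and its next highest level was in pericyte-like cells, with 28.3 CPM in EMF_AuNPs and 32.1 CPM in control cells. The NMDA subunit gene Grin3a (34.9 CPM in EMF_AuNPs, 29.5 in control), the kainate subunit gene Grik5 (59.9 and 45.1 CPM) and Gabbr1, a GABA-B subunit (283 and 239 CPM), had log2 ratios of 0.24, 0.40 and 0.24. The adrenergic receptor genes Adra2a, Adra1a, Adra1b and Adrb1 had ratios of 0.41, -0.42, 0.29 and -0.25, each with an interval that spanned 0. Adra1a and Adra1b had under 100 UMIs in typed cells and are named because they were among the few genes led by this cell type.

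Over all receptor genes with at least 20 UMIs in astrocyte-like cells, 5 of 31 were higher and 5 lower, where the background over 12235 genes was 17.4% higher and 8.82% lower. Many UMIs in a cell type can be free RNA of another, so genes were also counted only where their mean level was at least 20% of that in their leading cell type. That left 15 genes, of which Gabrg1, Glrb and Gabrb1 were higher and Gabrg3 was lower, against backgrounds of 18.1% and 6.94%. Gabrg3, a gamma subunit, had 3 UMIs in EMF_AuNPs and 18 in control cells, too few to name under the 100-UMI rule, and is given because it was the only lower gene. The median ratio of the 15 genes was 0.32, beside 0.19 for all genes under the same filters. The share of higher receptor genes was thus near the background under either filter.

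Glrb, the beta subunit that anchors glycine receptors to the scaffold protein gephyrin, had a ratio above 0 in each of the 7 compared cell types. Its interval lay above 0 in 5 of them. Other receptor genes did much the same. Gabrb1 and Grm3 had ratios above 0 in all 7 types, with intervals above 0 in 3 and 4. Gabrg1 had ratios above 0 in 6 types, with intervals above 0 in 3. In oligodendrocyte-like cells, which led Glrb, this gene had 631 UMIs or 163 CPM (150 to 176) in EMF_AuNPs cells. Control cells had 1457 UMIs or 92.3 CPM (87.6 to 97.2), a log2 ratio of 0.81 (0.68 to 0.95). Astrocyte-like cells had Glrb at 97.8 CPM (88.3 to 108) in EMF_AuNPs and 46.9 CPM (41.6 to 52.7) in control cells, a ratio of 1.04 (0.83 to 1.29). In both types the counting intervals of the 2 libraries did not overlap. Pericyte-like cells had 101 CPM (68.7 to 142) in EMF_AuNPs and 61.8 CPM (40.01 to 91.3) in control cells, a ratio of 0.69 whose interval of -0.10 to 1.52 spanned 0. After thinning, 16.6% of EMF_AuNPs (14.5 to 18.998) and 8.29% of control (7.59 to 9.02) oligodendrocyte-like cells held a Glrb UMI. Unthinned cells, with 3405 UMIs at the median in EMF_AuNPs and 2329 in control, had shares of 42.7% and 19.99%. In thinned microglia-like cells the Glrb shares were 3.27% in EMF_AuNPs and 1.103% in control. Red blood cell-gated barcodes had 32.3 CPM of Glrb in EMF_AuNPs and 31.6 CPM in control, from 7 and 5 UMIs. Glrb levels in microglia-like cells (27.0 CPM in EMF_AuNPs, 14.2 in control) and endothelial-like cells (26.8 and 11.4 CPM) lay under these values. So did those in choroid plexus-like cells (17.2 and 6.61 CPM). In smooth muscle-like cells even the summed glycine receptor genes lay under the red blood cell values, at 28.9 CPM in EMF_AuNPs and 21.6 CPM in control. The red blood cell values rest on few UMIs, and free RNA is only part of the UMIs of a cell. What part of these levels is free RNA was not tested, and they are not read as expression. Oligodendrocyte markers summed to 3068 CPM in EMF_AuNPs and 2237 CPM in control astrocyte-like cells, and their part in the astrocyte ratio was not tested. The alpha subunits it assembles with had few UMIs, 0 for Glra4 and under 20 each for Glra1, Glra2 and Glra3.

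**Figure D2:**
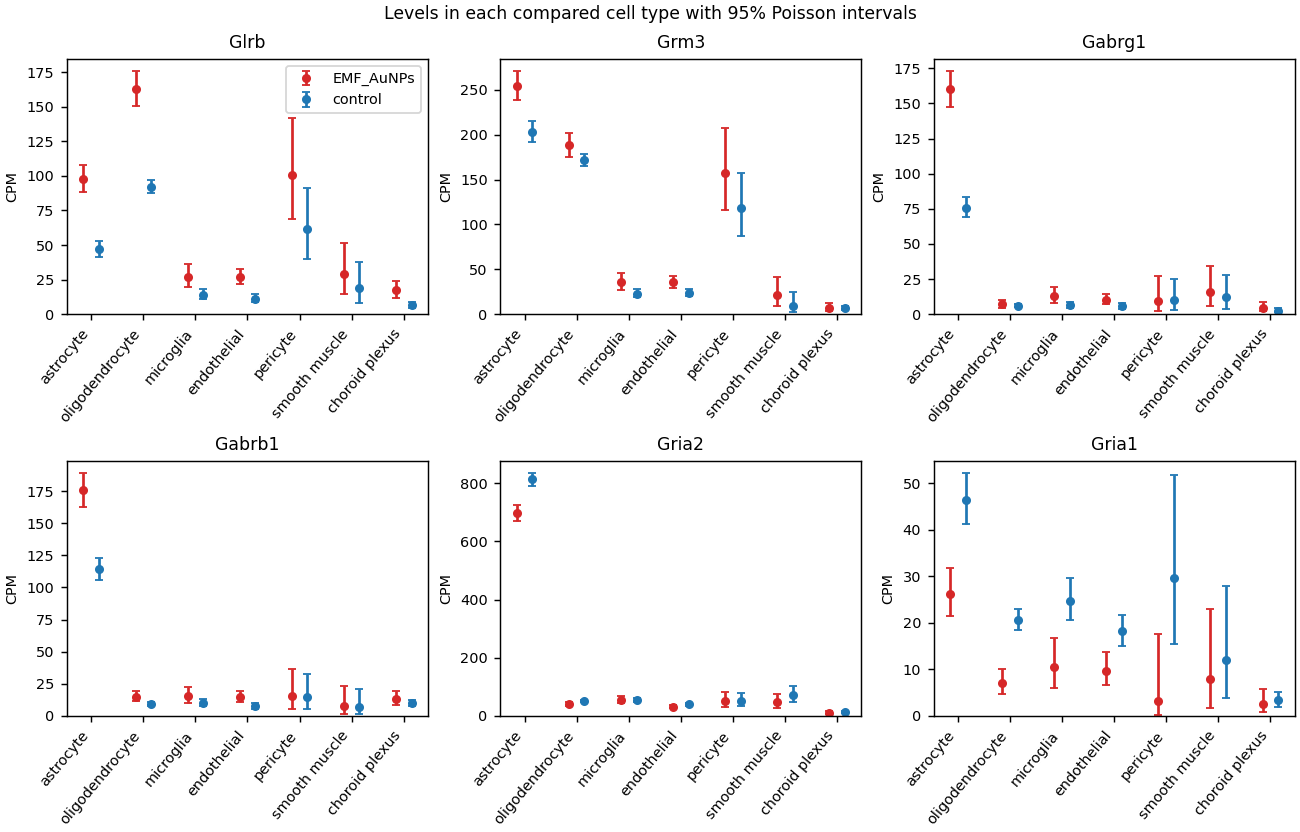
Points are CPM with 95% Poisson intervals in the 7 compared cell types, EMF_AuNPs in red to the left of control in blue, for Glrb, Grm3, Gabrg1, Gabrb1, Gria2 and Gria1, each panel on its own linear scale from 0. The EMF_AuNPs points of Glrb, Grm3 and Gabrb1 lie above those of control in every type, and Gria1 in EMF_AuNPs lies below control in every type. Gabrg1 and Gabrb1 reach 160 and 176 CPM in EMF_AuNPs and 75.9 and 114 CPM in control astrocyte-like cells.

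Oligodendrocyte-like cells, which make myelin, numbered 1097 in the EMF_AuNPs and 6258 in the control library. Grm3 had 188 CPM (175 to 202) in EMF_AuNPs and 171 CPM (165 to 178) in control cells, a ratio of 0.13 (0.01 to 0.25). Gria4, an AMPA subunit, had 105 UMIs or 27.1 CPM (22.1 to 32.8) in EMF_AuNPs and 661 UMIs or 41.9 CPM (38.7 to 45.2) in control cells, a ratio of -0.61 (-0.94 to -0.33). Thinned cells held a Gria4 UMI in 2.88% of EMF_AuNPs (1.97 to 4.06) and 4.01% of control cells (3.52 to 4.54), from 1076 and 5866 cells deep enough. Unthinned, the shares were 8.75% and 9.57%. Glrb was thus higher and Gria4 lower in the same cells. Grik4, a kainate subunit, was higher, with 9.28 CPM (6.50 to 12.8) from 36 UMIs in EMF_AuNPs and 4.81 CPM (3.79 to 6.03) from 76 UMIs in control cells, a ratio of 0.82 (0.33 to 1.54). With 10 CPM added in place of 1, the ratios of Grik4 (0.38) and Gria4 (-0.48) were both under 1.5-fold, and thinning gave -0.50 for Gria4. Gabrr2, a rho subunit, had 9.54 CPM in EMF_AuNPs and 9.75 CPM in control cells, a ratio of -0.03 (-0.59 to 0.49), and took 84.1% of its UMIs in typed cells from this cell type. Grik1, another kainate subunit, had 9.28 CPM in EMF_AuNPs and 7.09 CPM in control cells, with 81.8% of its typed UMIs here. With at least 20 UMIs, 5 of 38 receptor genes were higher and 13 lower, against backgrounds of 7.74% and 10.2%. With the 20% filter, 2 of 8 were higher (Glrb, Grik4) and 1 lower (Gria4), against 7.25% and 7.28%.

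Microglia-like cells, the brain's resident macrophages, numbered 768 in EMF_AuNPs and 3057 in control. Adrb1, a receptor for noradrenaline, had 68 UMIs or 41.7 CPM (32.4 to 52.9) in EMF_AuNPs and 44.6 CPM (38.9 to 50.9) in control cells, from 220 UMIs, a ratio of -0.09 (-0.51 to 0.30). No difference in Adrb1 could be detected at this depth. Gabbr1 had 107 UMIs or 65.7 CPM (53.8 to 79.4) in EMF_AuNPs and 410 UMIs or 83.2 CPM (75.3 to 91.6) in control cells, a ratio of -0.34 (-0.66 to -0.03) that stayed under 1.5-fold. Red blood cell-gated barcodes, which should lack the gene, had 92.4 CPM of Gabbr1 (56.4 to 143) in EMF_AuNPs and 190 CPM (128 to 271) in control. The level in microglia-like cells did not exceed these values, and what part of it is free RNA was not tested. With at least 20 UMIs, 4 of 25 receptor genes were higher and 9 lower in microglia-like cells, against backgrounds of 10.8% and 15.3%. With the 20% filter, 1 of 3 genes was higher and 0 lower, against 9.21% and 13%.

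Vessel cells carried few receptor genes of their own. Chrnb1, a nicotinic subunit known from muscle, led in endothelial-like cells with 12.1 CPM (8.61 to 16.4) in EMF_AuNPs and 8.44 CPM (6.36 to 11.0) in control cells, a ratio of 0.47 (-0.11 to 1.13). With at least 20 UMIs, 5 of 30 receptor genes were higher and 10 lower in endothelial-like cells, against backgrounds of 11.8% and 8.04%. Chrnb1 was the only gene left by the 20% filter and was called in neither direction, where backgrounds were 10.4% and 5.95%. Pericyte-like cells, which wrap capillaries, had Grm3 at 157 CPM (117 to 207) in EMF_AuNPs and 119 CPM (87.5 to 157) in control cells. They also had Grm7, a metabotropic receptor mostly of neurons, at 31.4 CPM from 10 UMIs in EMF_AuNPs and 42.0 CPM from 17 UMIs in control cells. Neither ratio, 0.40 (-0.20 to 1.01) for Grm3 and -0.41 (-1.71 to 0.79) for Grm7, had an interval clear of 0. In pericyte-like cells 1 of 6 genes was higher (Glrb) and 1 lower (Gabbr1), against 18.1% and 14.5%; with the 20% filter it was 1 and 1 of 4, against 16.4% and 14.8%. In smooth muscle-like cells 0 of 2 genes were higher and 1 was lower (Gria2), against 19.2% and 13.5%, and the Gria2 interval of -1.53 to 0.29 spanned 0. No gene passed the 20% filter there. Drd1, a dopamine receptor with 35 UMIs in all and outside the 100-UMI rule, is named because smooth muscle-like cells led it, with 5 UMIs in EMF_AuNPs and 8 in control.

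Choroid plexus-like cells, which secrete cerebrospinal fluid, held Htr2c, a serotonin receptor typical of this tissue. Htr2c had 830 UMIs or 408 CPM (381 to 437) in 180 EMF_AuNPs cells and 1815 UMIs or 316 CPM (301 to 330) in 507 control cells, a log2 ratio of 0.37 (0.25 to 0.49). The median gene of these cells stood at 0.29, and relative to it the Htr2c ratio was 0.08. The transthyretin gene Ttr took 35.0% of UMIs in EMF_AuNPs and 41.4% in control choroid plexus-like cells, and the Htr2c ratio was 0.22 with Ttr left out of the totals. Thinned cells held an Htr2c UMI in 29.8% of EMF_AuNPs (23.2 to 37.1) and 26.2% of control cells (22.3 to 30.3), against 76.1% and 82.4% unthinned, so no order is read from these shares. Typed cells gave 93.6% of their Htr2c UMIs here, whereas microglia-like cells held an Htr2c UMI in 0 of 612 thinned EMF_AuNPs cells, which allows a share of up to 0.49%, and in 0.221% of control cells. Gabra4 had 20.2 CPM (14.5 to 27.3) in EMF_AuNPs and 12.2 CPM (9.49 to 15.4) in control cells, a ratio of 0.68 (0.13 to 1.30). Relative to the median gene the Gabra4 ratio was 0.39 and so under 1.5-fold, and it reversed to -0.46 on 5 UMIs after thinning. The nicotinic subunit gene Chrna4 had 7.86 CPM in EMF_AuNPs and 9.39 CPM in control cells, a ratio of -0.23 (-1.16 to 0.57). With at least 20 UMIs, 5 of 14 genes were higher and 0 lower, against backgrounds of 28.2% and 5.66%. With the 20% filter 2 of 5 were higher (Gabra4, Chrnb4) and 0 lower, against 31.1% and 3.78%. The share of higher receptor genes was thus near the background.

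In the cell type that led each gene, 18 receptor genes had at least 20 UMIs in a compared type, and 5 were higher and 1 lower, where the background was 14.7% and 8.94% of 7081 genes. Among the higher genes were Gabrg1 and Gabrb1 in astrocyte-like, Glrb in oligodendrocyte-like and Chrnb4 in choroid plexus-like cells, and the lower one was Gabrg3. Chrnb4, with 11 UMIs in EMF_AuNPs and 15 in control cells, is below the 100-UMI rule.

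**Figure D3:**
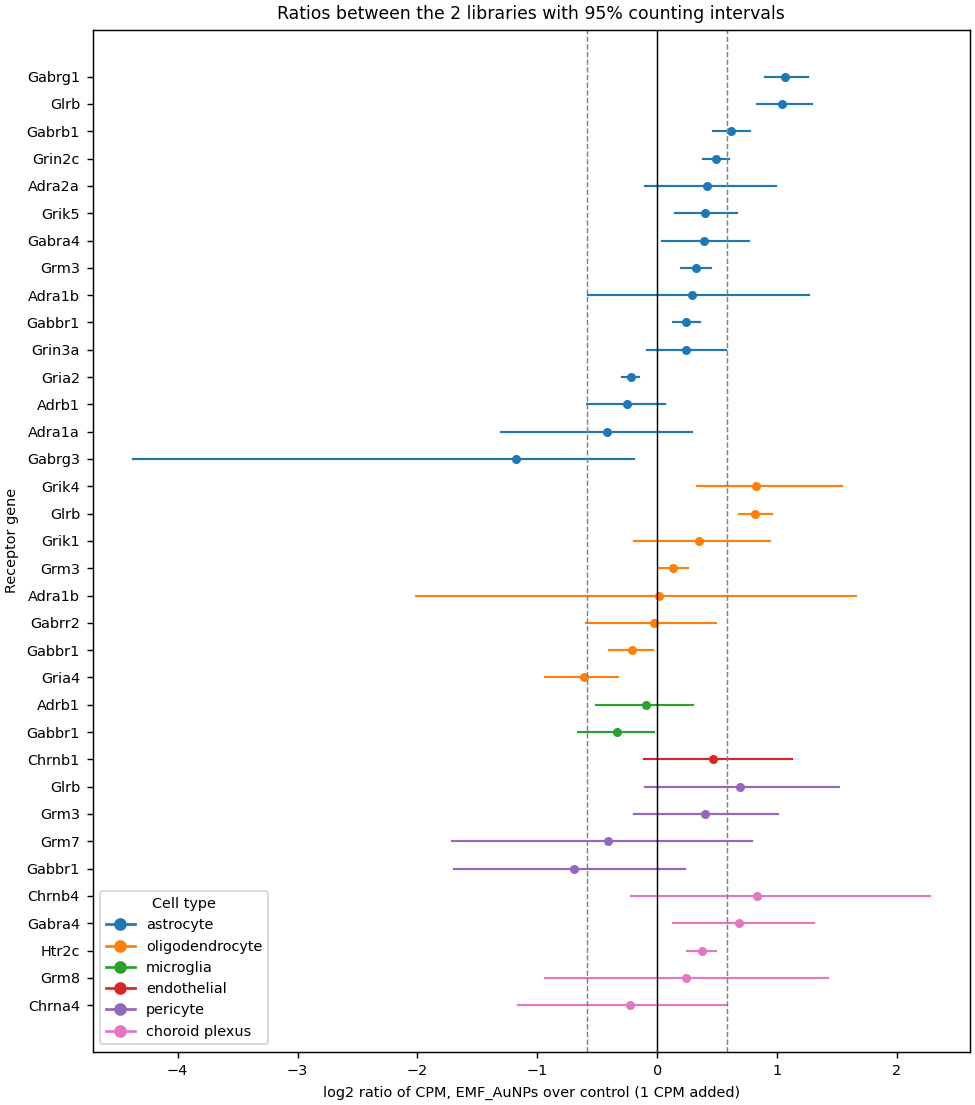
Points are log2 ratios of CPM, EMF_AuNPs over control with 1 CPM added, and bars their 95% counting intervals, for 35 combinations of receptor gene and cell type with at least 20 UMIs and at least 20% of the leading level; colour gives the cell type, and dashed lines mark 1.5-fold. Gabrg1, Glrb and Gabrb1 in astrocyte-like and Grik4 and Glrb in oligodendrocyte-like cells lie right of the upper line. So do Glrb in pericyte-like and Gabra4 and Chrnb4 in choroid plexus-like cells. Gria4 in oligodendrocyte-like, Gabrg3 in astrocyte-like and Gabbr1 in pericyte-like cells lie left of the lower one.

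Several genes led by neurons were lower in the EMF_AuNPs library in cells that are not neurons. Gria1, an AMPA subunit, had a ratio below 0 in all 7 compared types, with 26.2 CPM (21.4 to 31.8) in EMF_AuNPs and 46.4 CPM (41.1 to 52.2) in control astrocyte-like cells, a ratio of -0.80 (-1.16 to -0.49). In oligodendrocyte-like cells Gria1 had 6.96 CPM in EMF_AuNPs and 20.5 CPM in control, and in microglia-like cells 10.4 and 24.8 CPM. Grin2b, an NMDA subunit, had 29.8 CPM (24.6 to 35.7) in EMF_AuNPs and 60.4 CPM (54.3 to 66.9) in control astrocyte-like cells, a ratio of -0.995 (-1.33 to -0.71). Gabbr2, the GABA-B subunit that couples to G proteins, had 14 UMIs in EMF_AuNPs and 87 in control astrocyte-like cells, a ratio of -1.76 (-2.95 to -1.20). Markers of excitatory or granule neurons moved the same way in these cells, while interneuron markers did not. The excitatory or granule neuron markers summed to 178 CPM in EMF_AuNPs and 339 CPM in control astrocyte-like cells. They summed to 247 and 430 CPM in oligodendrocyte-like, 160 and 360 CPM in microglia-like, and 193 and 307 CPM in endothelial-like cells. Interneuron markers summed to 392 CPM in EMF_AuNPs and 206 CPM in control astrocyte-like cells. Their sums were 109 and 91.5 CPM in oligodendrocyte-like, 102 and 94.6 CPM in microglia-like, and 72.0 and 68.3 CPM in endothelial-like cells. Excitatory or granule neuron-like cells were 34 barcodes (0.486%, 0.336 to 0.678) in EMF_AuNPs and 292 (1.35%, 1.20 to 1.52) in control. The part of free neuronal RNA in these ratios was not tested. Red blood cell-gated barcodes held Gria1 at 13.9 CPM in EMF_AuNPs and 37.9 CPM in control, from 3 and 6 UMIs.

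The neurons themselves were too few in the EMF_AuNPs library to compare, and their values are given side by side. Gria2 had 120 UMIs or 2941 CPM (2439 to 3517) in EMF_AuNPs and 1294 UMIs or 2169 CPM (2052 to 2290) in control excitatory or granule neuron-like cells. Gria1 had 441 CPM (261 to 697) from 18 UMIs in EMF_AuNPs and 813 CPM (742 to 889) from 485 UMIs in control cells, and Grin2b had 441 CPM (261 to 697) and 999 CPM (920 to 1083). Gria3 had 735 CPM (496 to 1050) in EMF_AuNPs and 335 CPM (290 to 385) in control cells. Excitatory or granule neuron markers summed to 5858 CPM in EMF_AuNPs and 10645 CPM in control cells of this type. Astrocyte markers in the same cells summed to 3628 and 2585 CPM. Gabra5, an alpha subunit of hippocampal neurons, had 2 UMIs in EMF_AuNPs and 125 in control, and the muscarinic receptor gene Chrm1 had 2 and 77. These raw counts come from totals of 40799 UMIs in EMF_AuNPs and 596608 UMIs in control neuron-like cells, so they are not comparable as they stand. Interneuron-like cells numbered 13 in EMF_AuNPs and 17 in control, and Gabrb2, a beta subunit, had 15 UMIs in 7 cells and 1 UMI in 1 cell. Cajal-Retzius-like cells, early-born neurons rich in reelin, led Gria4 with 3 UMIs in EMF_AuNPs and 12 in control, and had Gria1 at 321 CPM (193 to 501) and 132 CPM (87.3 to 193). Oligodendrocyte precursor-like cells numbered 10 in EMF_AuNPs and 34 in control, and had Gria2 at 502 CPM (259 to 877) and 465 CPM (306 to 676).

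Small cell types carried further receptor genes. Htr5b, a serotonin receptor gene, took 91.3% of its typed UMIs from ependymal-like cells, which line the ventricles, with 18 UMIs in 5 of 45 EMF_AuNPs cells and 76 UMIs in 29 of 116 control cells. That gave 81.2 CPM (48.2 to 128) in EMF_AuNPs and 131 CPM (103 to 164) in control. Microglia-like cells held no Htr5b UMI in either library. Adra2c, an alpha-2 adrenergic receptor gene, led in fibroblast-like cells with 16 UMIs or 303 CPM (173 to 492) in 19 EMF_AuNPs cells and 20 UMIs or 153 CPM (93.6 to 237) in 83 control cells. The intervals of the libraries overlapped for both genes.

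Summed by family, GABA-A genes had 393 CPM in EMF_AuNPs and 245 CPM in control astrocyte-like cells, a log2 ratio of 0.68 (0.58 to 0.79) that was 0.52 relative to the median gene and so under 1.5-fold. Gabrg1 and Gabrb1 gave 628 and 690 of the 1544 EMF_AuNPs UMIs, and 456 and 687 of the 1471 control UMIs. AMPA genes in oligodendrocyte-like cells had 77.3 CPM in EMF_AuNPs and 118 CPM in control, a ratio of -0.60 (-0.78 to -0.43). This sum held 300 UMIs in EMF_AuNPs and 1856 in control, and Gria4 gave 766 over both libraries. The rest came from Gria1, Gria2 and Gria3, which were led by neurons. What part of this sum is free neuronal RNA was not tested. The glycine family, nearly all Glrb, was higher in 6 of the 7 types. In pericyte-like cells its interval of -0.10 to 1.52 spanned 0. Its levels in microglia-, endothelial-, smooth muscle- and choroid plexus-like cells, like those of Glrb, are not read as expression. Serotonin receptor genes were lower in oligodendrocyte-like cells, with 5 UMIs in EMF_AuNPs and 85 in control, most of them from Htr2c, the choroid plexus gene. Over the 70 sums with at least 20 UMIs, 11 were higher and 6 lower, and 6 of the 11 higher sums were the glycine family. No background of sums over other genes was made, so these counts are not read as a trait of receptor genes.

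**Figure D4:**
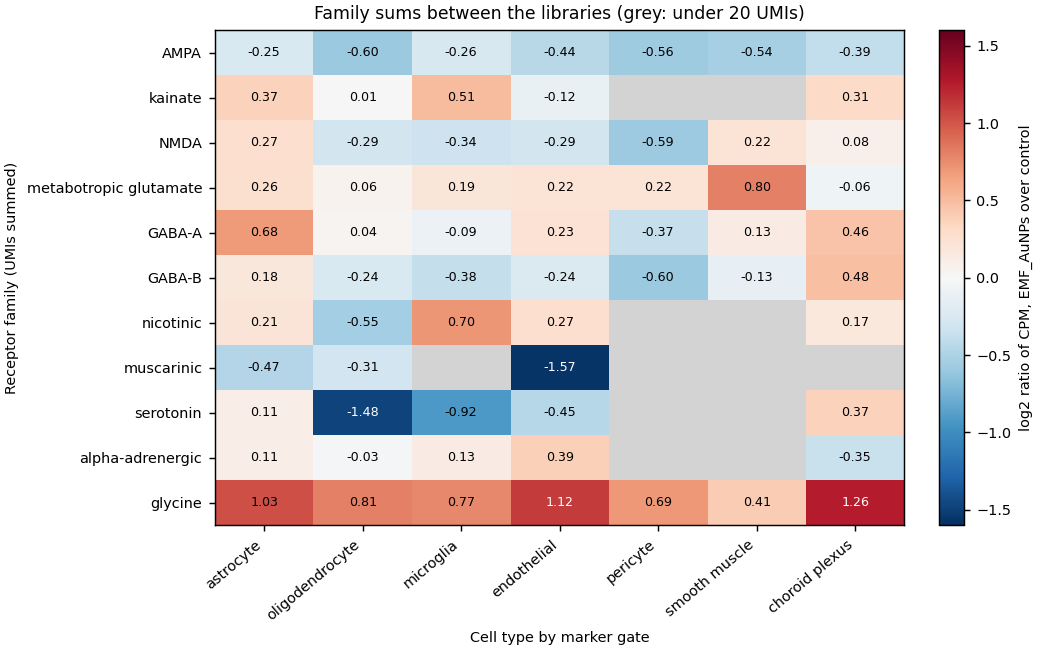
Each cell gives the log2 ratio of CPM, EMF_AuNPs over control, of a receptor family's summed UMIs (rows) in a compared cell type (columns); red is higher in EMF_AuNPs, blue lower, and grey marks sums under 20 UMIs. The glycine row is red throughout (0.41 to 1.26), the AMPA row blue throughout (-0.60 to -0.25), and GABA-A is red in astrocyte-like cells (0.68). Counting intervals, not drawn, spanned 0 for glycine in pericyte- and smooth muscle-like cells. For AMPA they did so in microglia-, pericyte-, smooth muscle- and choroid plexus-like cells.

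Other genes of transmission, from lists of auxiliary subunits, scaffolds, uptake, synthesis and G protein partners, were read in the same way with the 20% filter. In astrocyte-like cells, uptake genes had 2 of 6 higher and 1 lower. Slc6a11, a GABA transporter, had 602 CPM in EMF_AuNPs and 340 CPM in control cells, a ratio of 0.82. Slc6a9, a glycine transporter, had 23.9 CPM in EMF_AuNPs and 36.6 CPM in control cells, a ratio of -0.59. The glutamate transporter genes Slc1a2 and Slc1a3, also markers of the gate, had ratios of 0.28 and 0.48. Of 8 synthesis and breakdown genes, 2 were higher and 0 lower: Glul, which makes glutamine from glutamate, with 2839 CPM in EMF_AuNPs and 1519 CPM in control (0.90), and Maob, a monoamine oxidase (0.66). Auxiliary subunits had 1 of 6 higher and 3 lower, scaffolds 2 of 14 higher (Dlg4, Nlgn1) and 1 lower, and G protein partners 0 of 16 in either direction. These counts stand beside the astrocyte backgrounds of 18.1% higher and 6.94% lower. In oligodendrocyte-like cells 1 of 8 scaffold genes was lower, Nlgn2 (-0.97), and 0 of 9 G protein partners were called. Backgrounds there were 7.25% higher and 7.28% lower. In microglia-like cells Rgs2, a regulator that ends G protein signals, was the lower 1 of 9 G protein partners, with 630 CPM in EMF_AuNPs and 1101 CPM in control (-0.81). Synthesis and breakdown genes there had 0 of 8 higher and 2 lower, the GABA-degrading Abat (-0.95) and the aminotransferase Got2 (-0.68). Scaffold genes there had 0 of 4 higher and 1 lower, the gephyrin gene Gphn (-0.76). Backgrounds in microglia-like cells were 9.21% higher and 13% lower. Elsewhere the Gphn ratio was -0.25 in astrocyte-, -0.28 in oligodendrocyte-, -0.04 in endothelial- and -0.64 in smooth muscle-like cells. In pericyte-like cells it was -2.13, from 3 UMIs in EMF_AuNPs and 18 in control. The endothelial and smooth muscle intervals spanned 0. In endothelial-like cells 0 of 10 synthesis and breakdown, 0 of 7 scaffold and 0 of 12 G protein partner genes were called. Their backgrounds were 10.4% higher and 5.95% lower. In choroid plexus-like cells 3 of 9 scaffold genes (Homer1, Dlg4, Dlgap1) and 3 of 5 synthesis and breakdown genes (Aldh5a1, Maob, Got1) were higher and 0 lower, beside the background of 31.1% higher. Smooth muscle-like cells had 2 of 13 G protein partners higher and 5 lower, beside backgrounds of 18.5% and 13%.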

How the data were processed

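Single-cell RNA of the mouse hippocampus was measured in 2 libraries, grouped by the treatment label. The deposited values are raw, whole-number UMI counts for each gene in each barcode. Per the submitters' processing notes, the authors' reads went through Cell Ranger 3.0.2 with the STAR aligner against build mm10. Which annotation they used is not given in the sources used here. Receptor genes, gene lists and the gate's scoring rule were chosen with earlier results of these data known.

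Cells were gated on 183 markers of 19 classes (4 markers shared by classes were left out). A class needed at least 3 marker UMIs from 2 genes, 30% of the marker share typical of its clear cells, and a score at least 2 times that of the next class. No doublet caller was run; barcodes with mixed markers (15.7% in EMF_AuNPs, 15.6% in control), where doublets of unlike cells fall, were left out. Types with at least 50 cells in each library were compared, for genes with at least 20 UMIs. The leading type needed 100 cells and 5 UMIs. Genes with at least 100 UMIs in typed cells were described, and others are named with the reason. Results for a few genes are not reported here. Intervals are exact Poisson (CPM), Clopper-Pearson (shares) and conditional binomial (ratios), at 95%; a count of 0 allows up to 3 counts. They cover counting error only, since cells of 1 library are not replicates. The interval method was tested on simulated data. Gene positions came from GENCODE M21 (99 of 99 matched). Python 3.11.15, numpy 2.4.6, scipy 1.17.1, pandas 2.3.3 and R 4.3.3 with edgeR 4.0.16 (scaling only) were used. Alternatives covered gate, depth, pseudocount, filter and scaling.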

Additional observations from a re-analysis of the deposited data

Results flagged for a closer look

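Gabbr1, which encodes a GABA-B receptor subunit, had ratios of opposite sign in different cell types. Its log2 ratio of EMF_AuNPs over control was 0.24 in astrocyte-like cells, -0.21 in oligodendrocyte-like cells and -0.34 in microglia-like cells, with a counting interval clear of 0 in each. With 1 library per group the difference between cell types was not tested. None of the 3 ratios reached 1.5-fold, and the astrocyte ratio was 0.08 relative to the median gene. Gabbr1 had 75.0 CPM in EMF_AuNPs and 87.1 CPM in control oligodendrocyte-like cells, and 65.7 and 83.2 CPM in microglia-like cells. None of these exceeded the level in red blood cell-gated barcodes of the same library (92.4 and 190 CPM). The part of free RNA in the negative ratios was not tested.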

How the results depend on the processing

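Counts depended on the settings more than single genes did. Of 146 receptor values over the 7 types, 25 were higher and 39 lower. Backgrounds over all genes ran by cell type from 7.74% to 28.2% higher and from 5.66% to 15.3% lower. With 10 CPM added, 11 and 8 of 146 were called. The calls were 64 and 93 of 413 with no filter, and 12 and 11 of 52 with at least 100 UMIs. With cells thinned to 1000 UMIs, 18 of 93 were higher and 24 lower. Calls in the leading cell type were 5 higher and 1 lower of 18. They were 3 and 0 with 10 CPM added (of 18) or thinning (of 14), and 8 and 3 of 39 with no filter. Higher calls were 3 when centred on the median gene or scaled with TMM. Lower calls were 0 with at least 100 UMIs (of 11) or with scores 3 times the next class (of 17). Family sums, 11 higher and 6 lower, gave 11 lower when centred, and 5 higher and 16 lower with the member of most UMIs left out. Over 30 combinations of gene and cell type, 3 changed sign under 1 setting each. Gabra4 in choroid plexus-like cells, at least 1.5-fold apart before, stood at -0.46 after thinning, on 5 UMIs. Chrna4 there stood at 0.43 after thinning, on 6 UMIs, and Gabrr2 in oligodendrocyte-like cells at 0.0050 in cells with at least 1000 UMIs, both within 1.5-fold before and after. Over the alternatives Gabrg1 in astrocyte-like cells ranged from 0.90 to 1.09, Glrb in oligodendrocyte-like cells from 0.76 to 0.98 and Gria4 in oligodendrocyte-like cells from -0.64 to -0.48. The cause of these shifts was not tested. The planned stricter gate gave no value, since it left at most 1 EMF_AuNPs cell in each compared type. The settings with Ttr or haemoglobin left out of the totals, and with scores 3 times the next class, were chosen after seeing the data, as were all alternatives for the calls in the leading cell type except taking that type from the control library. No paired analysis was possible because each group has 1 library. Depth limits genes with few UMIs, and none of the intervals covers the spread between animals.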
